A study of Mus musculus with 16 samples.

Results

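Vascular endothelial growth factor (VEGF) ligands, their receptors and regulators of the hypoxia response were described here as a set of 10 genes: the ligands Vegfa, Vegfb and Vegfc, the receptors Flt1, Kdr, Nrp1 and Nrp2, the hypoxia-inducible transcription factor subunits Hif1a and Epas1, and the prolyl hydroxylase Egln3. They were chosen by name, as the rows of the count table whose Ensembl identifiers carry these symbols in the mouse annotation, and they are 10 of 35328 genes in the table. In the dorsal hippocampus Vegfa and Nrp1 were higher after spatial learning than in the home cage among caffeine-treated mice, by 32.2% and 43.1%. Among water-treated mice edgeR called no member for learning, although DESeq2 called Nrp1, and neither tool called a member for caffeine against water. Under water Vegfa and Nrp1 were higher by 16.5% and 34.8%, and a larger response under caffeine was not shown for either. Averaged over treatments, edgeR called Vegfa, Nrp1 and Nrp2 for learning.

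VEGF-A is a secreted protein that drives the growth and permeability of blood vessels, and in the brain it also acts on neurons and neural precursors. It binds the receptor tyrosine kinases FLT1 and KDR, of which KDR carries most of the growth signal and FLT1 binds the ligand tightly with little signaling, and the co-receptors NRP1 and NRP2, which in neurons also bind semaphorins. Transcription of Vegfa is raised by the hypoxia-inducible factors (HIF), whose alpha subunits are marked for breakdown by oxygen-dependent prolyl hydroxylases, so that their activity is set largely at the protein level and not at the level of their mRNA.

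The samples were dorsal hippocampi of 16 male C57Bl6/J mice, 4 in each of 4 groups, profiled by RNA-Seq. Mice drank water or water with caffeine at 0.3 g/L for 2 weeks, starting at 8 to 9 weeks of age. They were either kept in their home cage, giving the home cage water and home cage caffeine groups, or trained for 3 days in the Morris water maze, a test of spatial memory in which mice swim to a hidden platform, giving the learning water and learning caffeine groups. Tissue of trained mice was taken 1 hour after the last session. Learning groups thus differed from home cage groups in swimming and handling as well as in what was learned, and these cannot be told apart. The tissue is a bulk dissection, in which fewer cells of a type and less RNA per cell cannot be told apart. Mice are named by the number in their label.

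Libraries held 23078094 to 49949281 gene counts each, and mitochondrial transcripts took 3.23% to 4.49% of them, most in home cage caffeine mouse 17. Neuronal, glial and vascular markers were read in every library, and none of the 12 endothelial or 10 choroid plexus markers was at 0 in any. Levels are given as CPM, the count of a gene scaled to the TMM-adjusted size of its library. The summed level of choroid plexus markers, which stand for a tissue next to the hippocampus, varied most: it was 312 to 2389 CPM in home cage water mice, highest in mouse 20, and 119 to 511 CPM in the other groups. Calls of members that changed without home cage water mouse 20 or home cage caffeine mouse 17 are given with and without them. All 17830 genes that passed the count filter, the 10 members among them, were tested in 1 model by edgeR's quasi-likelihood test, and a gene was called when its p adjusted over all of them by Benjamini-Hochberg was under 0.1. Nothing in the labels gives a batch.

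The upstream sequences of Vegfa and Nrp1, the members called for learning under caffeine, and of P4ha1 are given first, because HIF binds a short core, ACGTG or GCGTG, and P4ha1, a HIF target, had the smallest p for learning among the HIF target genes listed. Each line holds the 250 bases before the RefSeq start in GRCm38.p6, on the gene's strand and 5′ to 3′, with matches to the core on either strand in capitals. RefSeq gave 2 starts for Vegfa. The windows are chr17:46032378-46032627 and chr17:46025164-46025413 (minus strand) for Vegfa, chr8:128358823-128359072 (plus strand) for Nrp1 and chr10:59323046-59323295 (plus strand) for P4ha1. The second Vegfa window lies inside the gene, and only this window holds annotated exon sequence. The Nrp1 window also lies inside the annotated span of its gene, which begins at 128358604, before the RefSeq start.
Vegfa, start 1: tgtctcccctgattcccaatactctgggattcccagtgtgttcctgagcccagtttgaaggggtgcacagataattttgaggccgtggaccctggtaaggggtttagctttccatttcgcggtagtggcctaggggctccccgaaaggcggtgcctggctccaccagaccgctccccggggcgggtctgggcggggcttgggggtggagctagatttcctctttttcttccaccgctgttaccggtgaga
Vegfa, start 2: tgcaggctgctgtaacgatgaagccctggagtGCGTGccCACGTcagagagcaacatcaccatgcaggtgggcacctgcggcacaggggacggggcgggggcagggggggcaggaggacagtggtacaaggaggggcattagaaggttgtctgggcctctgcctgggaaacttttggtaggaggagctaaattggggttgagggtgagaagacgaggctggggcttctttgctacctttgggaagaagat
Nrp1: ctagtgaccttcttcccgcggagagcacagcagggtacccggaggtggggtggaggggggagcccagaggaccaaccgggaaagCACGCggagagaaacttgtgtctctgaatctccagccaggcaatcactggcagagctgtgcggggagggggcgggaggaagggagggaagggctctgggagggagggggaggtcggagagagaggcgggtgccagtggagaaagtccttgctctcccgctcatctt
P4ha1: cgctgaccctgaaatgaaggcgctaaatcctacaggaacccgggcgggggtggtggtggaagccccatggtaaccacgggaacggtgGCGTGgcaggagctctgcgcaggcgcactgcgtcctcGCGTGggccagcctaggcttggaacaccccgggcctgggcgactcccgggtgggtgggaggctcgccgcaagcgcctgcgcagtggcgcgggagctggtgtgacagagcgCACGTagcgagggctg
The first Vegfa window held no match and the second 2, at 211 and 218 bases before that start, both overlapping a Vegfa exon. The Nrp1 window held 1, on the minus strand and 166 bases before the start, and the P4ha1 window held 3, at 16, 126 and 163 bases before the start. A match to either form stood in 38.6% of 32851 promoter windows of this length, 16.6% for ACGTG and 28.2% for GCGTG, so a match is common. No match says only that these letters are not in this window. RefSeq windows were found for 9 of the 10 members, all but Epas1. Members not called for learning under caffeine held matches as well. There were 3 for Hif1a, 2 each for Vegfb, Kdr and Nrp2, 1 each for Flt1 and Egln3, and 0 for Vegfc. The matches thus did not set the called members apart.

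Compared by length, the transcripts spanned a wide range, from Epas1 at 25.7 CPM per kb of exon (mean over 16 mice) to Vegfc at 1.22 CPM per kb. Epas1, which encodes HIF-2 alpha, was followed by Vegfb at 23.8, Vegfa at 18.9 and Hif1a at 13.3 CPM per kb. The neuropilins Nrp1 and Nrp2 stood at 7.44 and 6.83 CPM per kb. Below them came Flt1 at 4.19, Egln3 at 1.81 and Kdr at 1.64 CPM per kb. Between neighbours in this order, the ranges over mice were separate only from Hif1a to Nrp1 and from Flt1 to Egln3. All other neighbours overlapped in range, although Nrp2 was above Flt1 within each of the 16 libraries and Vegfa above Hif1a within 15 of 16. The decoy-like receptor Flt1 thus had a higher level per length than the signaling receptor Kdr in this tissue. Lengths here join all annotated exons of a gene, and which of its transcripts were expressed was not examined.

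**Figure D1:**
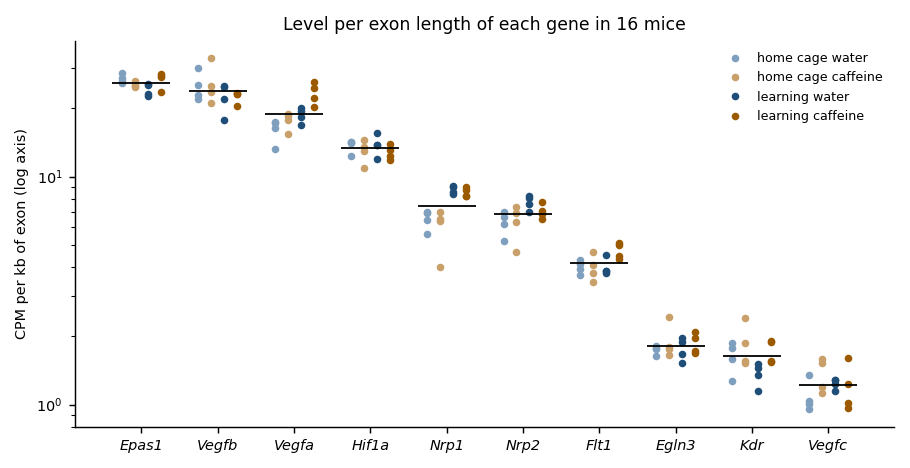
Level of each gene in CPM per kb of exon on a log axis, with a point per mouse coloured by group and a line at the mean of 16 mice. Epas1 (25.7), Vegfb (23.8) and Vegfa (18.9) lead, and Egln3, Kdr and Vegfc lie below 2.5 in every mouse.

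Vegfa (ENSMUSG00000023951, chromosome 17 from 46016993 to 46032369, mm10, minus strand), the main angiogenic ligand, had levels of 56.6, 69.9, 74.1 and 73.7 CPM in home cage water mice 6, 8, 11 and 20. The home cage caffeine mice 2, 9, 14 and 17 had 65.7, 75.6, 79.3 and 80.3 CPM. The learning water mice 24, 33, 36 and 38 had 78.3, 85.6, 83.3 and 72.4 CPM. Learning water thus overlapped home cage water only through mouse 38. The learning caffeine mice 22, 27, 30 and 40 had 111, 86.9, 105 and 94.7 CPM, and each of them was above every mouse of the other 3 groups. Under caffeine it rose after learning by 0.40 on the log2 scale (SE 0.09, edgeR adjusted p = 0.0295), with means of 75.2 ± 6.67 CPM in the home cage and 99.4 ± 10.8 CPM in trained mice (SD, n = 4 per group). Under water the means were 68.6 ± 8.20 CPM and 79.9 ± 5.84 CPM (SD, n = 4 per group), and the log2 fold change of 0.22 was not called (SE 0.09, edgeR adjusted p = 0.357). The responses to learning under caffeine and under water differed by 0.18 on the log2 scale (95% interval -0.09 to 0.46, unadjusted p = 0.180 and adjusted p = 1 in edgeR), so a larger response under caffeine was not shown. Averaged over both treatments, the log2 fold change for learning was 0.31 (SE 0.06, edgeR adjusted p = 0.00801).

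Vegfb (ENSMUSG00000024962, chromosome 19), a ligand of FLT1 linked to fatty acid handling and cell survival, and Vegfc (ENSMUSG00000031520, chromosome 8), the lymphatic growth factor, were not called in any of the 7 comparisons. Vegfb had 40.02 ± 5.66 and 41.1 ± 8.30 CPM in home cage water and caffeine mice and 35.9 ± 5.42 and 35.9 ± 2.23 CPM in learning water and caffeine mice (SD, n = 4 each). Its log2 fold change for learning averaged over treatments was -0.17 (SE 0.09, edgeR adjusted p = 0.240). Vegfc was the lowest member, at 2.34 to 3.93 CPM or 62 to 196 counts per library, with a log2 fold change of 0.002 (95% interval -0.25 to 0.25) for the same comparison.

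Nrp1 (ENSMUSG00000025810, chromosome 8 from 128358604 to 128503363, plus strand), the co-receptor that presents VEGF-A to KDR and receives class 3 semaphorins, separated the learning from the home cage groups under both treatments. The home cage water mice 6, 8, 11 and 20 had 55.0, 68.6, 63.3 and 67.4 CPM, and the home cage caffeine mice 2, 9, 14 and 17 had 62.2, 63.8, 68.6 and 39.1 CPM. The learning water mice 24, 33, 36 and 38 had 81.8, 84.0, 89.0 and 88.5 CPM, and the learning caffeine mice 22, 27, 30 and 40 had 85.6, 80.1, 87.7 and 80.8 CPM. Every trained mouse was above every home cage mouse, which with 8 mice against 8 held in this direction for 0.953% of the genes tested. Home cage caffeine mouse 17, the library with the highest mitochondrial share, lay far below the rest of its group. Under caffeine the log2 fold change was 0.52 (SE 0.12, edgeR adjusted p = 0.0298), and without mouse 17 it was 0.37 (adjusted p = 0.0160). Under water it was 0.43 (SE 0.12, edgeR adjusted p = 0.133), which was not called. It was called there, at an adjusted p of 0.00387 and a log2 fold change of 0.43, when home cage caffeine mouse 17 was left out of the shared model, and at 0.0383 by DESeq2. Averaged over treatments it was 0.47 (SE 0.08, edgeR adjusted p = 0.00273), and the responses under caffeine and water differed by 0.09 (95% interval -0.27 to 0.44, adjusted p = 1). Nrp1 shares 80 exon bases with the microRNA gene Mir1903 on its own strand. The paper counted reads with HTSeq in union mode, and reads in these bases were not examined here.

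Nrp2 (ENSMUSG00000025969, chromosome 1 from 62703285 to 62818695), the co-receptor for VEGF-C and for semaphorins in hippocampal neurons, followed Nrp1 under water. The home cage water mice had 62.0, 82.7, 78.9 and 73.2 CPM and the learning water mice 97.0, 83.2, 89.7 and 95.8 CPM, and these groups did not overlap. The home cage caffeine mice had 74.8, 81.9, 86.7 and 55.3 CPM and the learning caffeine mice 83.7, 77.0, 81.1 and 91.2 CPM, and these groups did. The lowest value was again that of home cage caffeine mouse 17. The log2 fold change was 0.30 under water (SE 0.11, edgeR adjusted p = 0.281) and 0.16 under caffeine (SE 0.11, adjusted p = 0.463), neither called. Without mouse 17 it was 0.30 under water, which was then called (edgeR adjusted p = 0.0952), and 0.041 under caffeine (adjusted p = 0.869). The average over treatments was called at 0.23 (SE 0.08, edgeR adjusted p = 0.0806). That call was lost when either of home cage water mice 6 and 20, learning water mice 36 and 38, or learning caffeine mice 30 and 40 was left out, at adjusted p values up to 0.146, and it was lost at 0.154 and a log2 fold change of 0.17 without home cage water 20 and home cage caffeine 17 together.

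**Figure D2:**
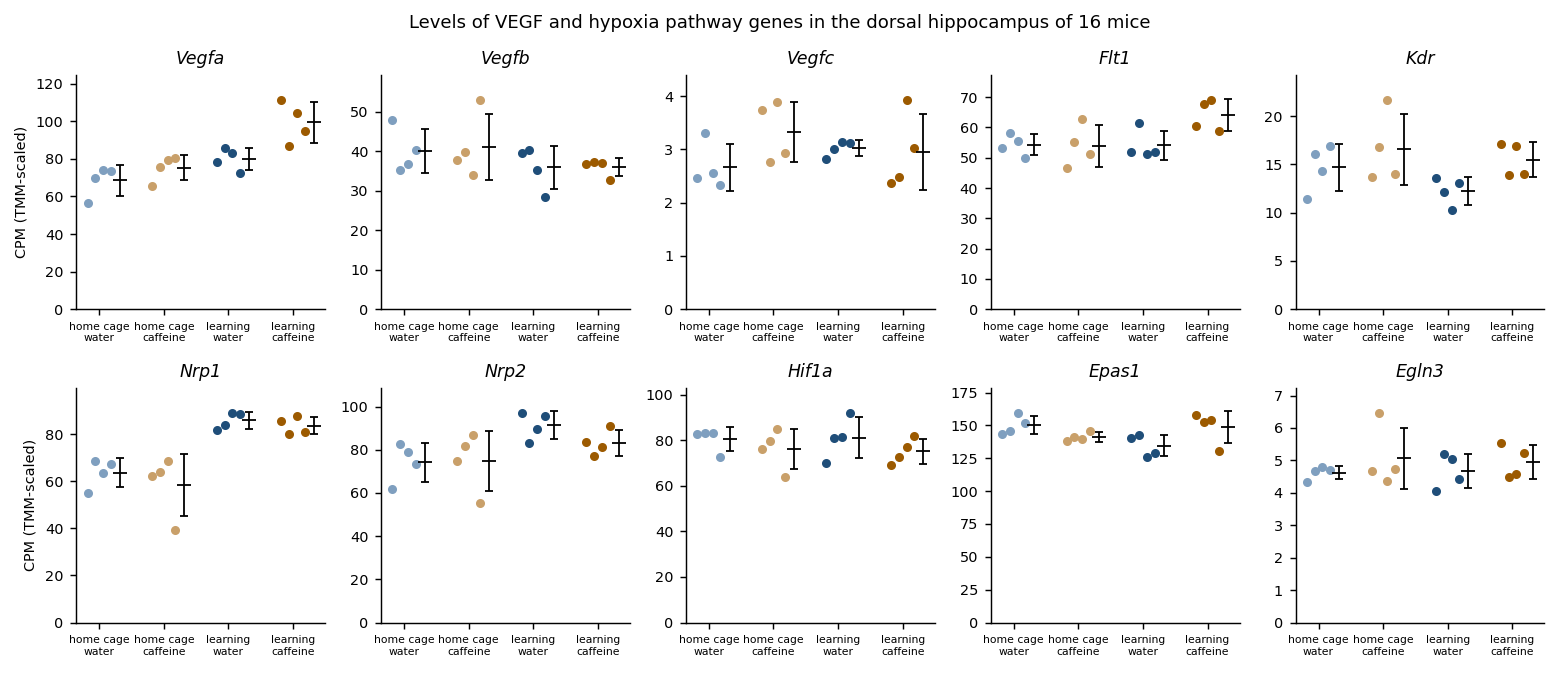
Level in CPM of each of the 10 genes in 16 mice, by group, with a point per mouse and the mean ± SD of 4 mice beside them. Nrp1 is at 80.1 CPM or more in all 8 trained mice and at 68.6 CPM or less in all 8 home cage mice, and the 4 learning caffeine mice have the highest Vegfa.

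The receptor tyrosine kinases, expressed mainly in endothelial cells, were not called in any comparison. Flt1 (ENSMUSG00000029648, chromosome 5) had 53.1, 58.3, 55.6 and 50.0 CPM in home cage water mice and 46.5, 55.1, 62.8 and 51.2 CPM in home cage caffeine mice. After learning it had 51.9, 61.4, 51.1 and 52.0 CPM with water and 60.6, 67.8, 69.2 and 58.9 CPM with caffeine. The learning caffeine group had the highest mean, and its range was above that of the home cage water group and overlapped those of the home cage caffeine and learning water groups. For learning under caffeine the log2 fold change was 0.25 (SE 0.09, edgeR adjusted p = 0.131), it was called by DESeq2 (adjusted p = 0.0764), and it was called in edgeR without home cage caffeine mouse 14 (0.34, adjusted p = 0.0415). Under water it was -0.005 (95% interval -0.19 to 0.18). Kdr (ENSMUSG00000062960, chromosome 5) had means of 14.7 ± 2.40 and 16.6 ± 3.69 CPM in the home cage on water and on caffeine, and of 12.3 ± 1.45 and 15.5 ± 1.78 CPM after learning on water and on caffeine (SD, n = 4 each). Its log2 fold change for learning averaged over treatments was -0.18 (SE 0.10, edgeR adjusted p = 0.284).

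Because both receptors mark endothelium, they were also set against the summed level of 12 endothelial markers, in 6 ratio tests that include Vegfa against 10 astrocyte markers. Flt1 relative to endothelial markers was higher after learning under caffeine by 0.25 on the log2 scale, with no overlap between groups (exact two-sided permutation test, p = 0.0286, the smallest that 4 mice against 4 allow, and p = 0.171 adjusted by Benjamini-Hochberg over the 6 tests). Under water the difference was 0.084 (exact permutation p = 0.4). Kdr relative to the same markers differed by -0.085 under caffeine (exact permutation p = 0.6) and -0.16 under water (exact permutation p = 0.371). Vegfa relative to astrocyte markers, a cell type known to make it, was higher by 0.41 under caffeine (exact permutation p = 0.0571) and 0.28 under water (exact permutation p = 0.114), neither under 0.05.

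Hif1a and Epas1, the HIF alpha subunits among the members, were not called in any comparison. Hif1a (ENSMUSG00000021109, chromosome 12) had means of 80.6 ± 5.29 and 76.3 ± 8.91 CPM in home cage mice given water and caffeine, and of 81.1 ± 8.96 and 75.3 ± 5.47 CPM in the trained mice (SD, n = 4 each). Its log2 fold change for learning averaged over treatments was -0.004 (95% interval -0.14 to 0.13), and its sign changed with the processing. Hif1a shares 330 exon bases with an antisense gene, Gm15283, so its counts are uncertain there if the counting did not use the strand. It shares 148 with Gm49321 on its own strand, where the counts are uncertain under either strand setting. Epas1 (ENSMUSG00000024140, chromosome 17), prominent in endothelium and astrocytes, had 144, 146, 159 and 152 CPM in home cage water mice 6, 8, 11 and 20 and 140, 143, 126 and 129 CPM in learning water mice 24, 33, 36 and 38, without overlap. Under caffeine it had 138, 141, 139 and 146 CPM in the home cage and 158, 153, 154 and 131 CPM after learning, with mouse 40 lowest. The log2 fold change for learning was -0.16 under water (SE 0.06, edgeR adjusted p = 0.304) and 0.08 under caffeine (SE 0.06, adjusted p = 0.511), neither called. Egln3 (ENSMUSG00000035105, chromosome 12), a prolyl hydroxylase that is itself induced by HIF, lay between 4.05 and 6.46 CPM in all mice, with a log2 fold change of -0.004 for learning averaged over treatments (95% interval -0.19 to 0.18).

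Counted over the set, learning under caffeine called 2 of 10 members, Vegfa and Nrp1, both higher, where 5.28% of all genes tested were called in either direction and 3.16% higher. The same 2 members had groups without overlap, where 5.64% of genes tested did so in the higher direction. Learning under water called 0 of 10 in edgeR, against 0.97% of genes. There 4 members, Vegfa, Nrp1, Nrp2 and Epas1, had an unadjusted p under 0.05, against 11.8% of genes, and DESeq2 called 1, Nrp1. Groups did not overlap under water for Nrp1 and Nrp2, higher after learning (3.87% of genes), and Epas1, lower (3.12%). Averaged over treatments, learning called 3 of 10 members, all higher, against 14.5% of genes in either direction and 7.81% higher. The median log2 fold change of the members was -0.001 in that comparison, and over all genes tested it was -0.013. As the members were chosen with earlier results of these data known, these shares are not a test of the set.

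**Figure D3:**
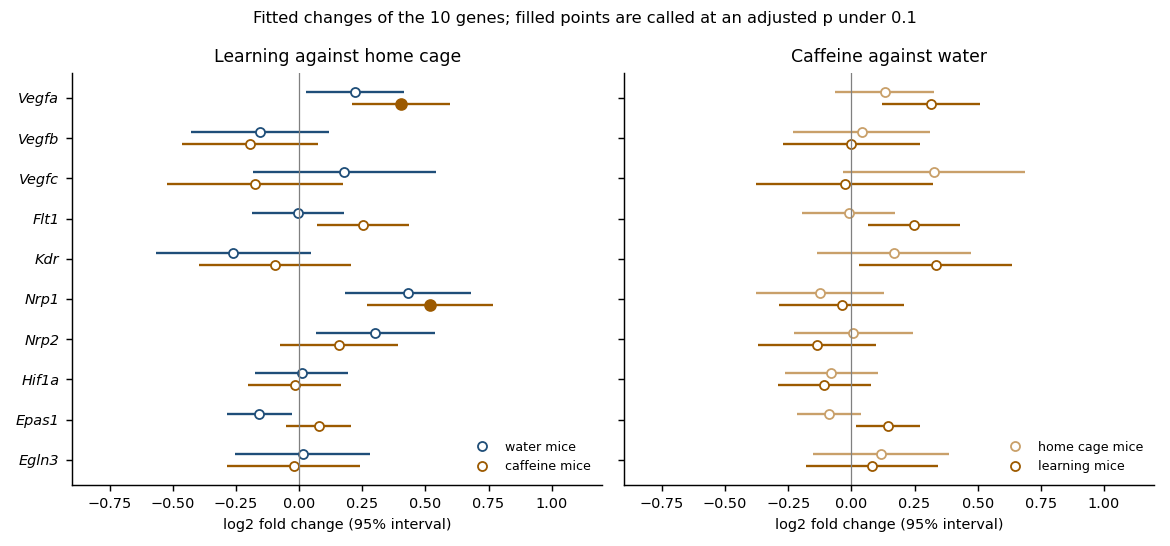
Fitted log2 fold changes of the 10 genes with 95% intervals, for learning against home cage (left, by treatment) and caffeine against water (right, by condition), where filled points were called at an adjusted p under 0.1. Only Vegfa (0.40) and Nrp1 (0.52) after learning under caffeine are filled.

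Caffeine against water gave no call among the members or among all genes in edgeR, that is 0% of genes tested, in the home cage, after learning or on average. In the home cage 0 of 10 members had an unadjusted p under 0.05, against 3.57% of genes, and DESeq2 called 0 members. After learning 4 of 10 did, against 3.93% of genes, and DESeq2 again called 0: Vegfa with a log2 fold change of 0.31 (unadjusted p = 0.00312), Flt1 with 0.25 (0.0107), Epas1 with 0.14 (0.0279) and Kdr with 0.33 (0.0322), each with an edgeR adjusted p of 0.999. Vegfa and Kdr did not overlap between the learning groups, both higher with caffeine, which held for 1.25% of genes. Kdr had 13.6, 12.2, 10.3 and 13.1 CPM in learning water mice and 17.1, 13.9, 16.9 and 14.02 CPM in learning caffeine mice. The learning caffeine mice also enter the comparison of learning with the home cage above, so these values are not a second measurement. Averaged over both conditions, Vegfa was 0.22 higher with caffeine on the log2 scale (unadjusted p = 0.00315, edgeR adjusted p = 0.855) and Kdr 0.25 higher (unadjusted p = 0.0241, adjusted p = 0.985), against 4.07% of genes with an unadjusted p under 0.05. The learning responses under the 2 treatments differed for 0 members by the adjusted p, as for 0% of genes, and at an unadjusted p under 0.05 for 1, Epas1, against 3.63% of genes. DESeq2 called 0 members in both of these comparisons.

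Other genes of the pathways came from lists, and their calls for learning were mostly on the HIF side. The lists were chosen with earlier results of these data known, so the shares beside these counts are not a test of a list. Of 30 HIF target genes, 8 rose and 1 fell under caffeine, where 3.16% of all genes tested were called higher and 2.13% lower. Under water 2 rose, against 0.639% of genes. On average 10 rose and 1 fell, against 7.81% and 6.71%. Their median log2 fold change was 0.055 under caffeine, where the median over all genes was -0.012. P4ha1, a collagen prolyl 4-hydroxylase subunit, had 45.5 to 61.7 CPM in the 8 home cage mice and 78.5 to 94.0 CPM in the 8 trained mice. It rose by a log2 fold change of 0.69 under caffeine (SE 0.09, edgeR adjusted p = 0.000900) and 0.60 under water (SE 0.09, adjusted p = 0.00427), and it was called in all 16 leave-one-out fits. Kdm3a, a histone H3 lysine demethylase, rose by 0.28 under caffeine (edgeR adjusted p = 0.00572) and 0.20 under water (adjusted p = 0.0834), although the call under water was kept in 9 of the 16 leave-one-out fits. P4ha2, the other collagen hydroxylase subunit on the list, rose by 0.44 under caffeine (adjusted p = 0.0305). Adm, which encodes the vasodilator peptide adrenomedullin, had 0.679, 0.560, 1.08 and 0.781 CPM in home cage caffeine mice and 2.13, 1.95, 1.204 and 1.34 CPM in learning caffeine mice, a log2 fold change of 1.07 at a low level (SE 0.26, edgeR adjusted p = 0.0366). Tfrc, the transferrin receptor, fell by 0.22 under caffeine (adjusted p = 0.0800). Pfkfb3, a regulator of glycolysis, rose by 0.37 under caffeine (adjusted p = 0.0954) and by 0.32 on average (adjusted p = 0.0262), and the glucose transporter gene Slc2a1 rose by 0.24 on average (adjusted p = 0.0390). The list's other genes of glycolysis, Ldha, Pgk1, Aldoa, Eno1, Hk2, Pdk1 and Pfkfb4, were not called in any comparison. DESeq2 called 10 of the list higher and 1 lower under caffeine, where it called 975 and 586 of all genes. Without home cage water 20 and home cage caffeine 17, edgeR called 5 higher and 0 lower, where it called 288 and 120 of all genes.

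**Figure D4:**
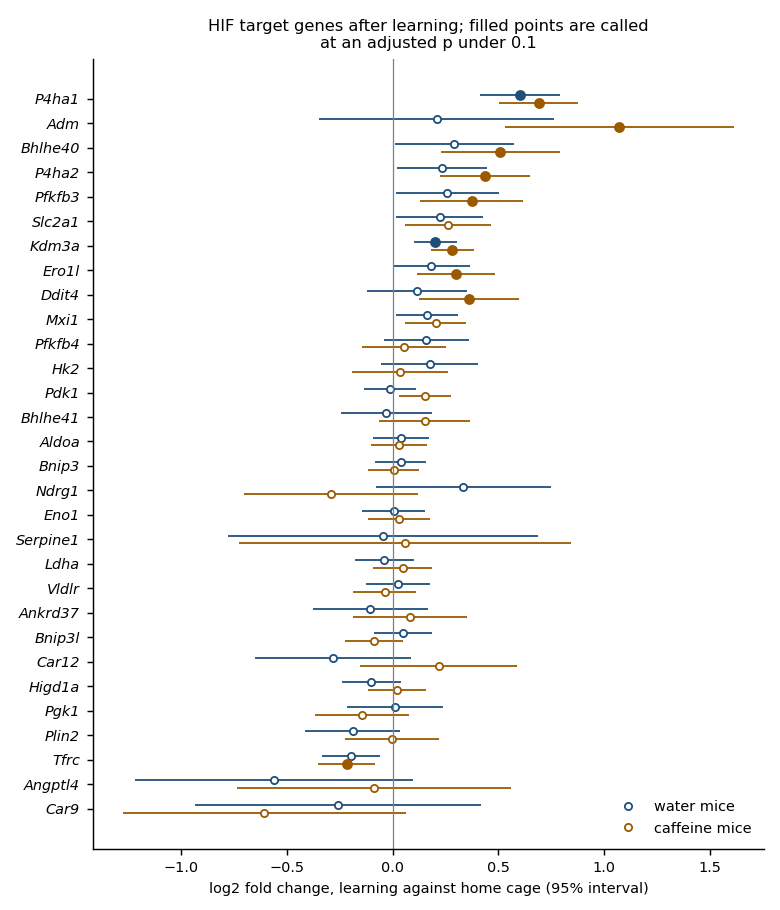
Log2 fold changes for learning against home cage of 30 HIF target genes with 95% intervals, in water and caffeine mice, ordered by the average response, where filled points were called at an adjusted p under 0.1. P4ha1 and Kdm3a are filled under both treatments, 7 further genes under caffeine only, and most others lie near 0.

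Of 12 other HIF pathway regulators, 2 rose under caffeine, against 3.16% of genes, and 3 on average, against 7.81%. Under water 0 were called, against 0.97% of genes, and 2 had an unadjusted p under 0.05, against 11.8%. DESeq2 called 2 there, where it called 287 of all genes higher and 140 lower. Hif3a, a further alpha subunit with forms that restrain the others, had 2.45 to 4.96 CPM in home cage mice and 4.97 to 7.28 CPM in trained mice. It rose by 0.95 under caffeine (SE 0.19, edgeR adjusted p = 0.0144), and under water its log2 fold change was 0.64 (SE 0.19, adjusted p = 0.168). Ep300, a histone acetyltransferase and HIF co-activator, rose by 0.29 under caffeine (adjusted p = 0.0649), a call kept in 12 of 16 leave-one-out fits. Hif1an, an asparagine hydroxylase that blocks HIF activity, rose only on average, by 0.11 (adjusted p = 0.0759), a call kept in 9 of 16 such fits.

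On the VEGF side the calls were few. Of 12 other VEGF and semaphorin ligands and receptors, edgeR called 0 under either treatment, against 0.97% of genes under water and 5.28% under caffeine. DESeq2 called 1 under each. Over all genes it called 287 higher and 140 lower under water, and 975 and 586 under caffeine. An unadjusted p under 0.05 was found for 3 under each treatment, against 11.8% of genes under water and 18.8% under caffeine. On average 1 fell, against 6.71% of genes, namely Sema3f, a semaphorin that signals through NRP2, with a log2 fold change of -0.75 (SE 0.19, edgeR adjusted p = 0.0236). Sema3f had 1.48 to 3.92 CPM in home cage mice, highest in home cage water mouse 20 and home cage caffeine mouse 17, and 1.21 to 1.85 CPM in trained mice, and it was not called when both of those mice were left out. Of 26 genes of VEGF receptor signaling, edgeR called 0 under either treatment, against 0.97% of genes under water and 5.28% under caffeine. An unadjusted p under 0.05 was found for 1 under each, against 11.8% and 18.8% of genes. DESeq2 called 0 under water and 1 under caffeine. On average 1 rose, against 7.81% of genes, namely the kinase gene Src, by 0.09 (edgeR adjusted p = 0.0698), a call kept in 14 of 16 leave-one-out fits. Of 13 other angiogenic ligands and receptors, 12 were tested, and 0 were called for learning by edgeR or DESeq2 under either treatment. An unadjusted p under 0.05 was found for 0 under water and 2 under caffeine, against the same 11.8% and 18.8% of genes. For caffeine against water, edgeR called 0 genes of these 5 lists in either condition, as 0% of all genes, and DESeq2 called 0. An unadjusted p under 0.05 was found in 2 genes of the lists in the home cage and 5 after learning. Over all genes tested the shares were 3.57% and 3.93%.

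Markers of cell types moved with learning beside these genes, and their part in the results was not tested. Summed endothelial markers were 251 to 281 CPM in home cage water, 227 to 285 CPM in home cage caffeine, 240 to 263 CPM in learning water and 240 to 288 CPM in learning caffeine mice, with overlapping ranges. Among the 12, on average Slc7a5 and Ocln rose by 0.22 and 0.24 on the log2 scale and Cldn5 and Egfl7 fell by 0.34 and 0.23. Over all genes tested, 7.81% were called higher and 6.71% lower in that comparison. Of 10 choroid plexus markers, 9 fell on average, against 6.71% of genes, with a median log2 fold change of -1.21 over the list. Under water 5 fell, against 0.331% of genes called lower there. With a mouse left out, 6 to 10 fell on average and 1 to 9 under water. For caffeine against water in the home cage, 0 of the 10 were called (0 to 7 called lower with a mouse left out). All 10 had an unadjusted p under 0.05, against 3.57% of genes, and their median log2 fold change was -1.67. Of 6 thalamus and septum markers, which stand for tissue outside the hippocampus, 2 were called under caffeine, the comparison in which Vegfa and Nrp1 were called. Zic1 and Zic4 fell by 1.09 and 0.96, against 2.13% of genes called lower there (0 to 2 markers with a mouse left out). Tcf7l2 and Lef1 were not called and went the other way. Their means were 3.71 and 3.36 CPM in home cage caffeine mice and 4.11 and 4.27 CPM in learning caffeine mice. Of 8 oligodendrocyte markers, 1 was called under caffeine, Opalin, which fell by 0.77, against 2.13% of genes called lower (0 to 3 markers with a mouse left out). None of the 8 had a positive log2 fold change there, with a median of -0.41, and 3 had an unadjusted p under 0.05, against 18.8% of genes. Of 8 mural cell markers, Pdgfrb and Acta2 fell by 0.22 and 0.47 on average, against 6.71% of genes called lower (1 to 2 markers with a mouse left out). Of 8 microglia markers, 5 fell under caffeine, Aif1 most, by 0.50, against 2.13% of genes called lower (1 to 5 markers with a mouse left out). Among 10 astrocyte markers Gjb6 rose by 0.45 and Gfap fell by 0.43 under caffeine, against 3.16% of genes called higher and 2.13% lower. None of 8 neuron markers was called in any learning comparison (0 with an unadjusted p under 0.05).

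**Figure D5:**
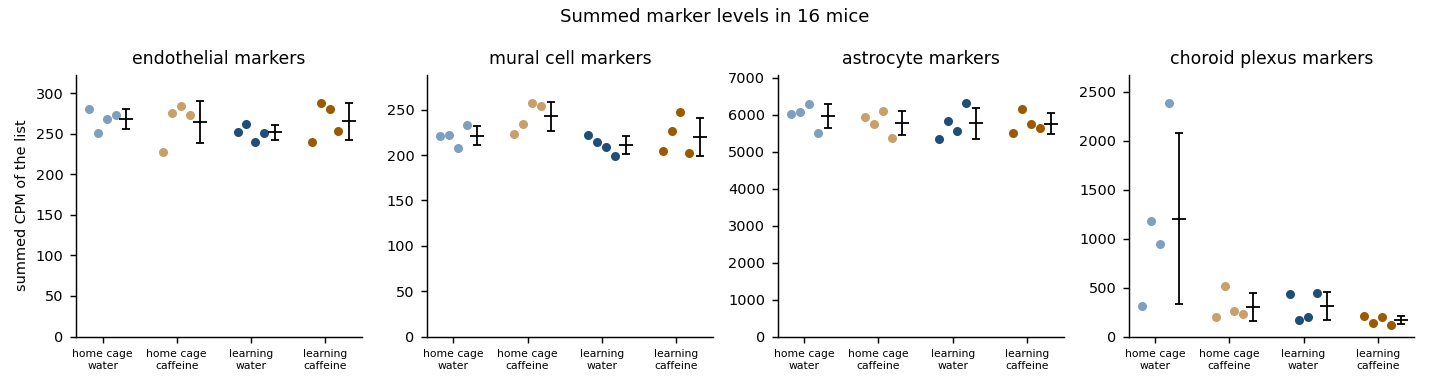
Summed CPM of endothelial, mural cell, astrocyte and choroid plexus marker lists in each of 16 mice, with the mean ± SD of 4 mice per group. The first 3 overlap between groups, and choroid plexus markers reach 2389 CPM in home cage water mouse 20 and stay at 511 CPM or less in the other 3 groups.

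Within groups, each member had a different closest gene. As a description over 16 mice, with each group's mean removed and levels that share a library and its depth, Nrp1 and Nrp2 varied together (Pearson r = 0.85, Spearman rho = 0.60), and without home cage caffeine mouse 17, the lowest for both, the values over 15 mice were 0.61 and 0.42. Flt1 followed the mean of the endothelial markers (r = 0.71, rho = 0.73), and its closest gene of 13378 compared was the endothelial cadherin Cdh5 (r = 0.87). Kdr followed the choroid plexus markers (r = 0.72, rho = 0.77) more than the endothelial ones (r = 0.30, rho = 0.27). For Nrp1 the highest r with a marker mean was that of neuron markers (r = 0.71, rho = 0.43). Their summed level was lowest in home cage caffeine mouse 17, at 9681 CPM, and at least 10850 CPM in every other mouse. The part of neuron content in the level of Nrp1 was not tested. Vegfa was closest to Icam1, Slc16a6, Sec61a2, Nemp1 and Senp3 (r = 0.81 to 0.86), and with the marker means it had r = 0.013 for endothelial, -0.51 for astrocyte (rho = -0.36) and -0.58 for microglia markers (rho = -0.57). Nrp1 was closest to Igf1r (r = 0.94), Nrp2 to Lpin2 (r = 0.97), Hif1a to Ubr3 (r = 0.97), Epas1 to Reck (r = 0.88), Vegfb to Ube2m (r = 0.96), Vegfc to Twnk (r = 0.91), Kdr to Trim56 (r = 0.94) and Egln3 to Mtrr (r = 0.83). Closest genes were picked as the highest of 13378 correlations over 16 mice, where high values can arise by chance. Whether any of them exceeds chance was not tested.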

How the data were processed

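RNA-Seq libraries of 16 mice were made with a stranded mRNA kit and sequenced as single-end reads, and per the paper's methods and the labels they were mapped to mm10 with STAR and Bowtie 2. The values the authors deposited are raw counts for each Ensembl gene, made from uniquely aligned reads with HTSeq 0.6.1p1, not normalized and not pooled. The strand setting of the counting is not given in the sources used here.

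Counts were tested in R 4.3.3 with edgeR 4.0.16 (TMM, filterByExpr, 1 mean per group over 16 libraries, quasi-likelihood test, Benjamini-Hochberg over 17830 genes, called at an adjusted p under 0.1). DESeq2 1.42.0 (Wald test) was an alternative. Depth was 23078094 to 49949281 counts. On simulated counts for learning under caffeine over 17830 genes, 100 genes were changed by 0.5 and 100 by 1 on the log2 scale. Of these, edgeR recovered 80 and 98, with 23 false calls. DESeq2 recovered 88 and 100, with 70 false calls, so calls made by DESeq2 alone are taken with caution. The counts were drawn once, with edgeR's own estimates of the spread, so they cannot rank edgeR and DESeq2 on these data. Symbols, exons and overlaps came from GENCODE M21, promoters from RefSeq. The labels do not say whether mice shared a litter or cage, and p-values measure the spread between these samples. Ratios used exact permutation tests. Library pairs within groups differed by more than counting error (chi-square per degree of freedom 5.26 to 30.4 over 24 pairs).

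The members and lists were chosen with earlier results of these data known. All members were named, and of each other list at most 4 called genes per comparison, by smallest p. Glycolytic genes and Slc2a1 were named, and the Nrp1 and Nrp2 correlation without mouse 17 was added, after values were seen.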

Additional observations from a re-analysis of the deposited data

Results flagged for a closer look

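In 3 of 40 sets of 4 mice (10 genes in 4 groups), a mouse stood apart from the others by Dixon's test, where chance flags about 1 in 20 groups. Vegfb was lowest in learning caffeine mouse 40, at 32.6 CPM. Flt1 was highest in learning water mouse 33, at 61.4 CPM. Hif1a was lowest in home cage water mouse 20, at 72.6 CPM, the library with the most choroid plexus marker RNA.

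The learning response of Epas1 was 0.23 higher on the log2 scale under caffeine than under water (unadjusted p = 0.0136, edgeR adjusted p = 1), since its level was lower after learning with water and not with caffeine. The difference did not pass the correction over all genes.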

How the results depend on the processing

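Vegfa and Nrp1 stayed called for learning under caffeine, and for learning averaged over treatments, in all 16 fits with a mouse left out and under every other alternative run: DESeq2 size factors, DESeq2's Wald test, keeping each gene with at least 1 count in total, keeping those with 10 or more counts per library, a threshold of 0.05, the 8 libraries of the comparison (not run for averages), and home cage water 20 and home cage caffeine 17 both left out (chosen after seeing the data). Their largest adjusted p under caffeine were 0.0896 and 0.0873. The count of members called for learning under caffeine was 2 to 3 with a mouse left out, and on average 2 to 4. Under water it was 0 to 2, with Nrp1 and Nrp2 called without home cage caffeine 17. It was 1 (Nrp1) by DESeq2 (adjusted p = 0.0383), with at least 1 count in total (0.0247), with 8 libraries (0.0429) and with both mice left out (0.00955). The causes of these changes were not tested. Nrp2 on average was not called at an adjusted p under 0.05 or with both mice left out (0.17, adjusted p = 0.154).

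Signs changed only in values that were not called in either setting. With both mice left out, the log2 change of caffeine in the home cage was -0.10 for Vegfb and 0.055 for Nrp1, that of caffeine on average -0.049 and 0.011, and the difference of learning responses 0.11 and -0.088. In that fit Hif1a was -0.038 for learning under water and Vegfc -0.057 on average. Flt1 for learning under water was 0.00034 by DESeq2 and 0.0057 with at least 1 count in total. On average, Hif1a was 0.0017 and Egln3 0.0019 with DESeq2 size factors, 0.0032 and 0.0048 by DESeq2, and 0.0061 and 0.0070 with at least 1 count in total.

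With each mouse left out in turn, log2 changes of caffeine in the home cage were -0.11 to 0.14 for Vegfb, -0.093 to 0.056 for Flt1, -0.21 to 0.029 for Nrp1, -0.073 to 0.13 for Nrp2 and -0.0052 to 0.18 for Egln3. After learning they were -0.091 to 0.062 for Vegfb and -0.20 to 0.069 for Vegfc, and on average -0.051 to 0.070 for Vegfb. Learning under water gave -0.069 to 0.046 for Flt1, -0.053 to 0.078 for Hif1a and -0.037 to 0.083 for Egln3. Learning under caffeine gave -0.16 to 0.070 for Kdr, -0.090 to 0.044 for Hif1a and -0.080 to 0.11 for Egln3. On average it gave -0.083 to 0.078 for Vegfc, -0.038 to 0.032 for Hif1a and -0.032 to 0.062 for Egln3. The differences of responses were -0.13 to 0.11 for Vegfb, -0.064 to 0.18 for Nrp1, -0.10 to 0.038 for Hif1a and -0.10 to 0.090 for Egln3. The ratio of Flt1 to endothelial markers under caffeine was 0.21 to 0.29, with an exact permutation p of 0.0571, the smallest that 3 mice against 4 allow, and that of Kdr was -0.18 to 0.016.

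Over all genes, learning called 114 higher and 59 lower under water, against 287 and 140 by DESeq2, 193 and 97 with at least 1 count in total, 66 and 19 with 8 libraries, 50 and 20 at an adjusted p under 0.05, and 55 and 9 with both mice left out. Under caffeine it called 563 and 379, against 975 and 586 by DESeq2, 293 and 156 at an adjusted p under 0.05, 288 and 120 with both mice left out, and 352 higher with 8 libraries. On average it called 1393 and 1197, against 819 and 565 at an adjusted p under 0.05 and 856 and 512 with both mice left out. Caffeine called 2 genes higher and 17 lower in the home cage by DESeq2 and 3 and 31 with at least 1 count in total, and 1 and 5, and 1 and 7, after learning. On average over conditions these were 3 and 13, and 5 and 31. The learning responses differed, higher and lower under caffeine, for 1 and 5 genes by DESeq2 and 0 and 9 with at least 1 count in total. No member was among these calls. With a mouse left out, learning called 30 to 217 genes higher and 5 to 95 lower under water, 249 to 729 and 125 to 534 under caffeine, and 1037 to 1905 and 708 to 1436 on average. No paired analysis was possible because the mouse numbers in the labels are unique to each mouse. Depth limits Vegfc and Egln3 most, with as few as 62 and 109 counts in a library.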
